A study of Homo sapiens with 4 samples.

Results

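Small nucleolar RNA (snoRNA) host genes are described here across HEK293T libraries that differed in the PBRM1 construct the cells received. The members were the rows of the gene count table whose symbol begins with SNHG, together with GAS5, DANCR, TAF1D, C6orf48, ZFAS1 and EPB41L4A-AS1, if they held at least 10 reads summed over the 4 libraries. This rule kept 26 of 58735 rows. Another 4 rows matched by name but held fewer reads: SNHG18, SNHG27 and SNHG28 had 0 and SNHG22 had 3. SNHG14, with exactly 10 reads, was the member at the limit.

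HEK293T is a human embryonic kidney line. All cells carried a CRISPR knockout of PBRM1, the subunit of the PBAF chromatin remodelling complex that bears bromodomains and BAH domains, and all were harvested 48 h after transfection with a plasmid for GFP-tagged PBRM1. The plasmid encoded P1048R, T1202K or C1233W, which the series title calls BAH domain mutants, or the wild-type protein (WT). Each construct had 1 library of total RNA, and the sources used here do not say whether the knockout line was 1 clone. The series asks how the transcriptome differs after re-expression of a mutant and of WT PBRM1. With 1 library each there was no replicate check and no test, so every difference below is between libraries.

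A snoRNA is a short nuclear RNA that guides the chemical modification of other RNAs, mainly ribosomal RNA. Box C/D snoRNAs guide methylation of the ribose and box H/ACA snoRNAs guide the change of uridine to pseudouridine, while scaRNAs do the same for spliceosomal RNAs in Cajal bodies. In human cells most are cut out of the introns of a longer host transcript. The spliced remainder of a non-coding host gene often has short open reading frames, enters the cytoplasm and is degraded by nonsense-mediated decay (NMD). Many hosts, coding and non-coding, start with a terminal oligopyrimidine (TOP) stretch like that of ribosomal protein mRNAs.

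The small RNAs themselves lie within the spans of these genes. The following sequences lie in EPB41L4A-AS1, SNHG12, SNHG15 and SNHG19, which passed the 2-fold rule used below. With them are 2 further C/D examples, from C6orf48 and SNHG1. All were read 5′ to 3′ from GENCODE release 29 transcripts on GRCh38. Capitals mark the box C letters TGATGA, the box D letters CTGA, or the ACA of an H/ACA snoRNA that is followed by exactly 3 bases. SNHG17 and SNHG11 also passed the 2-fold rule but have no sequence printed. None of their H/ACA sequences had such an ACA.
SNORA13 (in EPB41L4A-AS1, plus strand, chr5:112161485-112161617): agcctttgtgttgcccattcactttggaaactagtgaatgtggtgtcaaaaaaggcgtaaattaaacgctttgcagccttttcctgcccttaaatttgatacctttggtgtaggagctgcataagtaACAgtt
SNORA61 (in SNHG12, minus strand, chr1:28579764-28579893): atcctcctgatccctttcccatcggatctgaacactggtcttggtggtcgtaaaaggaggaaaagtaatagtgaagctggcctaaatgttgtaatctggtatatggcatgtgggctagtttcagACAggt
SNORA9 (in SNHG15, minus strand, chr7:44985378-44985510): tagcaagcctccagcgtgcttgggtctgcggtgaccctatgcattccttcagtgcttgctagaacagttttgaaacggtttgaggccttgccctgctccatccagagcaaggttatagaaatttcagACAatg
SNORD60 (in SNHG19, minus strand, chr16:2155023-2155105): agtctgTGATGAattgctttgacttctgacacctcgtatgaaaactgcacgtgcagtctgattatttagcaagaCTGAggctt
SNORD48 (in C6orf48, plus strand, chr6:31835263-31835326): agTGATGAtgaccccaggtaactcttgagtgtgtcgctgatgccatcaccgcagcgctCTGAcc
SNORD30 (in SNHG1, minus strand, chr11:62853663-62853732): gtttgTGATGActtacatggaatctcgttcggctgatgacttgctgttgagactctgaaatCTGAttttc

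By the small RNA genes annotated inside them on the same strand, 10 members hosted H/ACA snoRNAs, 9 C/D snoRNAs, 3 both kinds and 3 a scaRNA. GAS5, a known snoRNA host, had none listed in this release. Of the 21 C/D sequences in hosts other than SNHG6 and SNHG14, 14 had TGATGA in the first 18 bases and CTGA in the last 18. Of 29 H/ACA sequences, 17 ended in ACA and exactly 3 further bases.

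Promoter windows bear on the TOP form that many hosts share. The next windows are from RefSeq on GRCh38.p14, 35 bases before the annotated start and 15 from it, on the gene's strand. Capitals mark an unbroken run that opens with C and goes on with at least 4 bases C or T within 10 bases of the start. They are shown for the members past the 2-fold rule used below that had an entry, and for GAS5 and SNHG4.
EPB41L4A-AS1 (plus strand, chr5:112160491-112160540): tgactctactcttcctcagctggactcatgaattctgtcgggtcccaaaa
SNHG12 (minus strand, chr1:28581859-28581908): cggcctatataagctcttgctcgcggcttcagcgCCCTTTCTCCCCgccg
SNHG17 (minus strand, chr20:38435314-38435363): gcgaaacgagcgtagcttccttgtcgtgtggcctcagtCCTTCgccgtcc
SNHG11 (plus strand, chr20:38446619-38446668): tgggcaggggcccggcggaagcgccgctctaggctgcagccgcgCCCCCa
SNHG19 (minus strand, chr16:2155344-2155393): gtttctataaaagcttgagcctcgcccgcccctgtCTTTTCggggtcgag
SNHG4 (plus strand, chr5:139274066-139274115): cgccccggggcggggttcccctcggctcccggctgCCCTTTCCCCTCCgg
GAS5 (minus strand, chr1:173869031-173869080): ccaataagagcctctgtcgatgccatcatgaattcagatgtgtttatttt

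Of 26 members, 22 matched a RefSeq promoter, 21 by symbol and C6orf48 by its current symbol SNHG32; SNHG6, SNHG9, SNHG15 and SNHG25 did not. The C and pyrimidine run stood within 10 bases of the start in 15 of 22 (68.2%), against 11755 of 35114 promoters of all genes (33.5%). The letters TATAA, on the gene's strand and starting 40 to 20 bases upstream, stood in 6 of 22 (27.3%), against 1372 of 35114 (3.91%). The 6 were SNHG5, SNHG7, SNHG8, SNHG12, SNHG19 and ZFAS1, and this search was chosen after the windows had been seen. RefSeq and GENCODE starts lay within 10 bases of each other for 8 of the 22, so the runs describe the RefSeq start alone. Among the windows printed, SNHG12 with its long run was higher in the mutants, SNHG4 with its long run was lower, and EPB41L4A-AS1 had no run.

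Total counts were 11205322 in P1048R, 10993748 in T1202K, 10348552 in C1233W and 10246250 in WT. Levels are given as CPM, the usual rate of counts relative to library size, after scaling with edgeR's TMM factors, and 3 reads correspond to 0.251 to 0.321 CPM. PBRM1 itself took 0.938% of the reads in P1048R, 1.57% in T1202K, 6.04% in C1233W and 2.08% in WT, so the libraries also differed in PBRM1 RNA, and its part in any result below was not tested. The HEK293T markers PAX2, LHX1, NEFL, NEFM, KRT8 and KRT18 were above 1 CPM in every library, and NEFM was 2-fold lower in P1048R than in WT. Of the markers of other cell types, CD3E and HBB were at 0 and PTPRC, PECAM1, CDH5, DCN, KRT5 and KRT14 reached at most 0.290 CPM. The fibroblast genes LUM, at 1.09 to 2.22 CPM, and COL1A1, at 15.8 to 30.2 CPM, were detected. Intervals are 95%, are given as lower and upper bound in parentheses, and cover counting error only. Because no source used here gives the strand setting of the counting, counts of members that overlap another gene are uncertain.

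Of the members, 25 had at least 1 CPM in at least 1 library and were compared among 16262 such genes. SNHG14, the host of the snoRNA clusters of the Prader-Willi region, held 3 reads in P1048R, 2 in T1202K, 1 in C1233W and 4 in WT, and no ratio is given for it. Summed over the 25 members compared, the host genes reached 1440 CPM in P1048R, 1285 in T1202K, 1213 in C1233W and 1021 in WT. TAF1D made up 25% of the sum in P1048R, 19.8% in T1202K, 19.5% in C1233W and 19.0% in WT. Without it the sums were 1080 CPM in P1048R, 1030 in T1202K, 977 in C1233W and 827 in WT, so the order of the libraries was the same. In bulk RNA, fewer cells that express a gene and less of its RNA per cell cannot be told apart.

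The lowest of the 4 levels was in the WT library for 15 of the 25 members, in P1048R for 5, in C1233W for 3 and in T1202K for 2. Over all genes the lowest level was in WT for 31.0%. The highest level was in P1048R for 13 members, in WT for 8, in C1233W for 3 and in T1202K for 1, beside 23.6% of all genes in P1048R and 33.4% in WT. The count in WT includes SNHG25, which reached the 1 CPM minimum in that library alone and so had to be highest there. The share of members highest in WT was thus near that of all genes, whereas members were lowest in WT more often than all genes were.

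**Figure D1:**
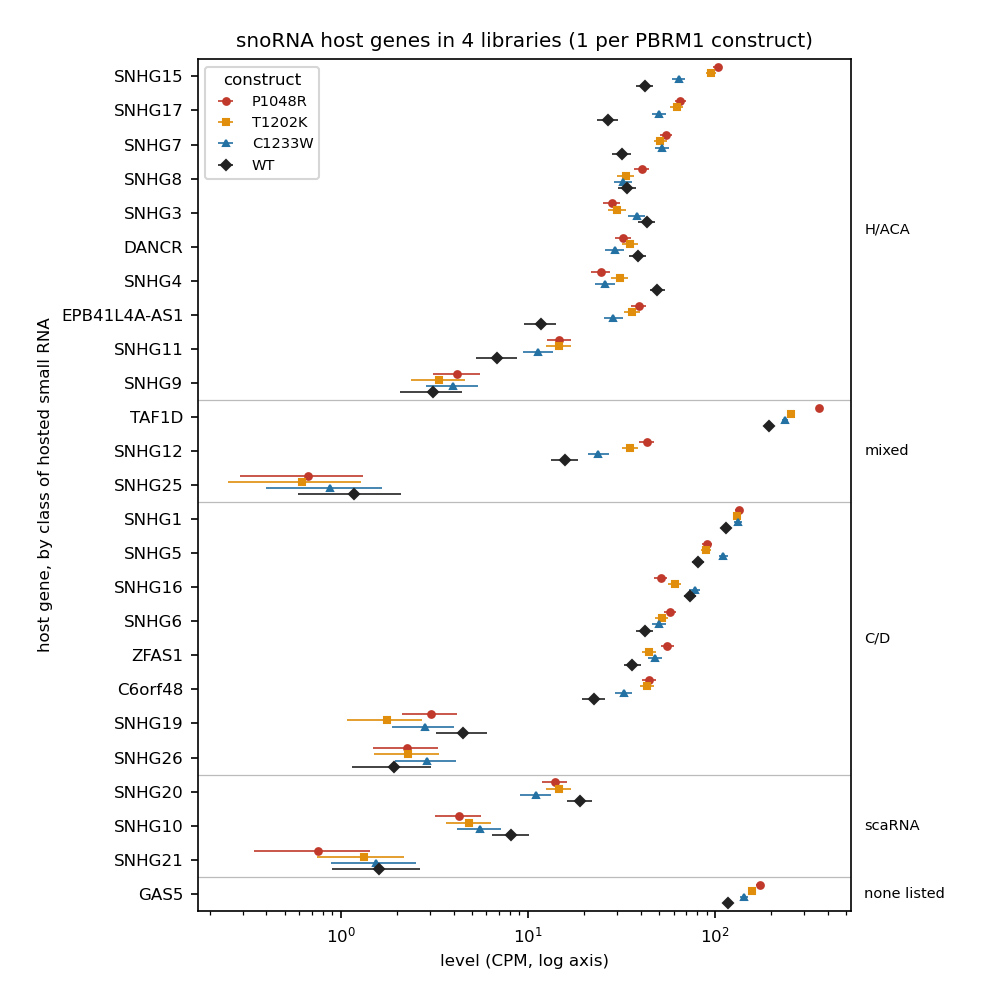
Level of each of the 25 host genes (CPM, log axis) in the P1048R, T1202K, C1233W and WT libraries, 1 library per construct, grouped by the class of small RNA they host. Bars are 95% Poisson intervals. For EPB41L4A-AS1 the WT point at 11.7 CPM lies apart from the mutants at 28.5 to 39.0, whereas for SNHG4 the WT point is the highest at 49.1 CPM.

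A gene was counted as past the 2-fold rule when 1 library exceeded another at least 2-fold and the counting interval of the ratio excluded no difference. P1048R against WT had 5 of 25 members past the rule as higher, where 4.48% of all genes were, and 0 as lower, where 3.02% were. For T1202K against WT, 5 were higher and 1 was lower, beside 2.95% and 2.21% of all genes. C1233W against WT had 1 higher and 0 lower, beside 4.19% and 1.21% of all genes. At 1.5-fold, with the same condition on the interval, P1048R had 9 members higher and 3 lower (10.7% and 8.99% of all genes), T1202K 7 and 3 (7.96% and 5.29%), and C1233W 6 and 2 (8.77% and 4.94%). These comparisons share the WT library, so 1 unusual WT value enters all of them.

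EPB41L4A-AS1 (ENSG00000224032, plus strand, chr5:112160526-112164276) is a long intergenic RNA gene in the annotation and hosts SNORA13. It had 39.0 CPM in P1048R, 36.0 in T1202K and 28.5 in C1233W, against 11.7 in WT. The 3 mutants lay above WT with no overlap of intervals, and C1233W lay below the other mutants. The log2 ratio to WT was 1.74 in P1048R (1.44, 2.06), 1.62 in T1202K (1.32, 1.95) and 1.29 in C1233W (0.97, 1.62). It was the single member past the 2-fold rule against WT in all 3 mutants, a pattern that 204 of 16262 genes (1.25%) had. At 1.5-fold, SNHG12, SNHG15, SNHG7, SNHG17 and SNHG11 joined it, where 3.43% of all genes passed, and SNHG4 was higher in WT than in every mutant, where 1.53% passed. Under at least 1 alternative processing, SNHG7 in all 3 mutants, SNHG12 in C1233W and SNHG4 in T1202K fell short of 1.5-fold. At 2-fold, 0 members were higher in WT than in every mutant, and 0.332% of all genes were. EPB41L4A, the protein-coding gene that overlaps it on the other strand, was low in every library, at 5.11 CPM in P1048R, 4.06 in T1202K, 5.61 in C1233W and 3.21 in WT.

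SNHG12 (ENSG00000197989, minus strand, chr1:28578538-28583132) hosts SNORD99 and the H/ACA snoRNAs SNORA61, SNORA44 and SNORA16A. Its level was 43.1 CPM in P1048R, 35.1 in T1202K and 23.8 in C1233W, against 15.7 in WT. All libraries were separate, in that order. The log2 ratio to WT was 1.45 in P1048R (1.19, 1.73), 1.16 in T1202K (0.88, 1.44) and 0.60 in C1233W (0.30, 0.90), so P1048R and T1202K passed the rule. Between mutants, SNHG12 had the largest ratio of the members with at least 10 CPM, at −0.85 for C1233W against P1048R (−1.08, −0.63).

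SNHG15 (ENSG00000232956, minus strand, chr7:44983023-44986961), the host of SNORA9, had 103 CPM in P1048R, 95.4 in T1202K and 63.9 in C1233W, against 42.0 in WT. P1048R and T1202K stood together at the top, C1233W in between and WT below. The log2 ratio to WT was 1.29 in P1048R (1.13, 1.46), 1.18 in T1202K (1.01, 1.35) and 0.60 in C1233W (0.42, 0.79).

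SNHG17 (ENSG00000196756, minus strand, chr20:38420588-38435353) and SNHG11 (ENSG00000174365, plus strand, chr20:38446578-38450921) lie 11225 bases apart on opposite strands, and both host H/ACA snoRNAs, among them copies of the SNORA71 family. SNHG17 had 65.2 CPM in P1048R, 62.2 in T1202K and 50.3 in C1233W, against 26.6 in WT. SNHG11 was lower, with 14.7 CPM in P1048R, 14.7 in T1202K and 11.3 in C1233W, against 6.85 in WT. Both genes had the mutants above WT and C1233W lowest among the mutants. The log2 ratios of SNHG17 to WT were 1.29 in P1048R (1.08, 1.502), 1.22 in T1202K (1.01, 1.44) and 0.92 in C1233W (0.70, 1.14). For SNHG11 they were 1.09 in P1048R (0.68, 1.53), 1.09 in T1202K (0.67, 1.54) and 0.72 in C1233W (0.27, 1.19). SNHG11 in T1202K stood at 1.00 and short of the rule once a trend with GC content and transcript length was removed.

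SNHG19 (ENSG00000260260, minus strand, chr16:2154797-2155358), the host of SNORD60, was the member past the rule as lower. It rests on few reads, with 3.02 CPM (36 reads) in P1048R, 1.77 CPM (20 reads) in T1202K and 2.81 CPM (29 reads) in C1233W, against 4.49 CPM (42 reads) in WT. T1202K was the lowest and WT the highest, and the intervals of P1048R and C1233W overlapped both. The log2 ratio to WT was −0.57 in P1048R (−1.26, 0.10), −1.33 in T1202K (−2.19, −0.55) and −0.67 in C1233W (−1.41, 0.04). TRAF7, which starts 340 bases away on the other strand, had ratios to WT of −0.01 in P1048R, 0.15 in T1202K and 0.01 in C1233W.

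**Figure D2:**
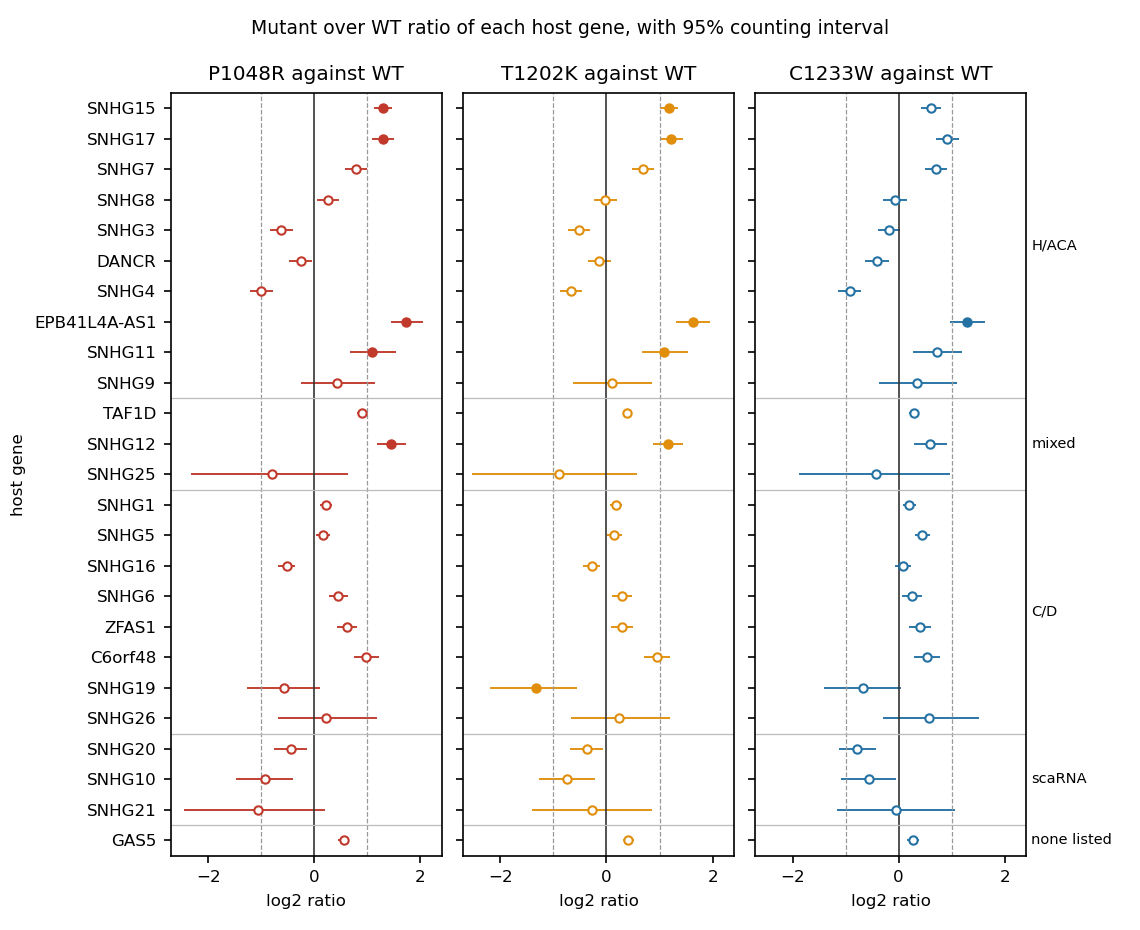
Log2 ratio of each of the 25 host genes for P1048R, T1202K and C1233W against WT, with the 95% counting interval as a bar. Dashed lines mark 2-fold, and filled points passed the 2-fold rule: 5, 6 and 1 genes in the 3 panels from left to right.

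The members with the highest level per length, in CPM per kb of merged exons, were GAS5 at a mean of 40.6 over the 4 libraries, SNHG6 at 40.4, SNHG8 at 37.8, SNHG1 at 34.0, SNHG5 at 33.2, TAF1D at 31.0, SNHG15 at 20.9 and ZFAS1 at 20.5. Of these 8, SNHG15 alone passed the 2-fold rule. The remaining 7 differed less. Of them, 6 were nonetheless above WT in every mutant beyond the counting interval, as 10.4% of all genes were.

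GAS5 (ENSG00000234741, minus strand, chr1:173863900-173868882), named for its rise in growth-arrested cells, had 173 CPM in P1048R, 157 in T1202K and 142 in C1233W, against 118 in WT. Each library differed from the next beyond the counting interval of their ratio, and the log2 ratio to WT was 0.55 in P1048R (0.45, 0.66), 0.41 in T1202K (0.30, 0.52) and 0.27 in C1233W (0.16, 0.39). SNHG6 (ENSG00000245910, minus strand, chromosome 8) had 57.5 CPM in P1048R, 51.7 in T1202K and 50.2 in C1233W, against 42.0 in WT, and T1202K could not be separated from either other mutant. TAF1D (ENSG00000166012, minus strand, chr11:93729948-93784391), a protein-coding host for a subunit of the RNA polymerase I initiation factor SL1, had 360 CPM in P1048R, 255 in T1202K and 236 in C1233W, against 194 in WT. These hosts shared the order P1048R, T1202K, C1233W, WT, and TAF1D in P1048R came nearest to 2-fold among them, with a log2 ratio of 0.89 (0.81, 0.97).

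SNHG1 (ENSG00000255717, minus strand, chr11:62851988-62855914), the host of a row of C/D snoRNAs, differed little between libraries. It had 133 CPM in P1048R, 131 in T1202K and 132 in C1233W, against 115 in WT. The 3 mutants could not be separated, and their log2 ratios to WT lay between 0.19 and 0.21. SNHG5 (ENSG00000203875, minus strand, chr6:85660950-85678748) had 90.8 CPM in P1048R, 89.9 in T1202K and 111 in C1233W, against 81.1 in WT. Here C1233W was the library that stood highest, at a log2 ratio to WT of 0.45 (0.31, 0.58).

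SNHG8 (ENSG00000269893, plus strand, chr4:118278709-118279823), the host of SNORA24, had 40.5 CPM in P1048R, 33.2 in T1202K and 32.2 in C1233W, against 33.7 in WT. P1048R alone was set off from WT, at a log2 ratio of 0.27 (0.06, 0.48). ZFAS1 (ENSG00000177410, plus strand, chr20:49278178-49295738), an antisense gene with the SNORD12 family in its introns, had 55.5 CPM in P1048R, 44.3 in T1202K and 47.9 in C1233W, against 36.2 in WT. All mutants were above WT, with P1048R highest at a log2 ratio of 0.62 (0.43, 0.81).

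Members outside both groups included some with almost 2-fold differences. C6orf48, a protein-coding host of SNORD48 and SNORD52, had 44.5 CPM in P1048R, 43.4 in T1202K and 32.5 in C1233W, against 22.5 in WT. Its log2 ratios to WT were 0.98 in P1048R (0.75, 1.22), 0.95 in T1202K (0.71, 1.19) and 0.53 in C1233W (0.28, 0.79), with intervals in P1048R and T1202K that reach past 2-fold. P1048R passed the 2-fold rule under 5 of 8 alternatives, at 1.01 to 1.21, and T1202K under 3 of them, at 1.04 to 1.12. SNHG7 had 54.7 CPM in P1048R, 51.0 in T1202K and 51.8 in C1233W, against 31.7 in WT, and the mutants could not be separated from each other. Its log2 ratios to WT were 0.79 in P1048R, 0.69 in T1202K and 0.71 in C1233W. Their lowest values under the alternatives were 0.54, 0.32 and 0.44.

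SNHG4, an H/ACA host, lies within the span of an annotated MATR3 gene on the same strand, so reads shared with that gene make its count uncertain, and it ran the opposite way. Its level was 24.5 CPM in P1048R, 30.9 in T1202K and 25.8 in C1233W, against 49.1 in WT. WT was clearly the highest library, and the log2 ratios were −0.9999 in P1048R (−1.22, −0.79), just short of 2-fold, −0.67 in T1202K (−0.87, −0.46) and −0.93 in C1233W (−1.15, −0.71). SNHG3, the host of the SNORA73 pair, lies within the span of RCC1 on the same strand, so its count is uncertain in the same way. It had 28.0 CPM in P1048R, 30.0 in T1202K and 38.0 in C1233W, against 43.0 in WT. P1048R and T1202K lay below WT and C1233W came near it, at a log2 ratio of −0.18 (−0.38, 0.03).

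SNHG16, with C/D snoRNAs, had 51.3 CPM in P1048R, 60.8 in T1202K and 77.7 in C1233W, against 73.7 in WT. C1233W and WT could not be separated, and the other mutants lay below them. DANCR, the host of SNORA26, had 32.3 CPM in P1048R, 35.2 in T1202K and 29.1 in C1233W, against 38.6 in WT, and T1202K could not be separated from WT. SNHG3 and SNHG12 lie 67646 bases apart on chromosome 1, and their log2 ratios for P1048R against WT were −0.62 and 1.45.

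The scaRNA hosts were all lower in the mutants by point value. SNHG20 had 13.9 CPM in P1048R, 14.7 in T1202K and 11.03 in C1233W, against 18.9 in WT. It overlaps SEC14L1 on the same strand, so shared reads make its count uncertain. SNHG10 had 4.27 CPM in P1048R, 4.86 in T1202K and 5.51 in C1233W, against 8.13 in WT. For both, each mutant lay below WT beyond its counting interval. SNHG21, near the lower limit of detection at 0.754 to 1.60 CPM, had intervals that included no difference from WT in every mutant.

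The remaining low members could not be separated from WT at this depth. SNHG9 lay between 3.10 and 4.19 CPM, SNHG26 between 1.93 and 2.90 CPM and SNHG25 between 0.618 and 1.18 CPM. SNHG25 passed the 1 CPM minimum through the WT library alone, with 11 reads there.

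Across members, the log2 ratio lay above 0 beyond the counting interval in all 3 mutants for 13 of 25, where 10.4% of all genes did, and below 0 in all 3 for 3 of 25, where 13.8% did. The 13 were EPB41L4A-AS1, SNHG12, SNHG15, SNHG17, SNHG11, C6orf48, TAF1D, SNHG7, ZFAS1, GAS5, SNHG6, SNHG5 and SNHG1, and the 3 were SNHG4, SNHG10 and SNHG20. Host genes were more highly expressed than most genes, with a median over members of 34.8 CPM against 21.9 CPM over all genes tested, and higher counts give narrower intervals. Among genes with at least 10 CPM in a library, 13 of 19 members were above in all 3 mutants and 2 were below, where 13.8% and 19.7% of 10749 such genes were. In 8 members the levels ran P1048R, T1202K, C1233W, WT from high to low, an order that 9.47% of all genes had.

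By class, the median log2 ratio of the 10 H/ACA hosts was 0.60 in P1048R, 0.40 in T1202K and 0.48 in C1233W against WT, with single genes between SNHG4 at −0.9999 and EPB41L4A-AS1 at 1.74 in P1048R. For the 8 C/D hosts compared it was 0.22 in P1048R, 0.21 in T1202K and 0.33 in C1233W. For the 3 scaRNA hosts it was −0.92 in P1048R, −0.37 in T1202K and −0.56 in C1233W. With 3 genes the median is the value of 1 gene, SNHG10 in P1048R and C1233W and SNHG20 in T1202K. The third, SNHG21, held only 9 to 16 reads per library. The H/ACA class therefore held both EPB41L4A-AS1, the member most above WT, and SNHG4, which was below WT in every mutant, and no difference between classes was tested.

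Between mutants no member passed the 2-fold rule. For T1202K against P1048R, 0.572% of all genes passed as higher and 0.664% as lower, for C1233W against P1048R 3.73% and 0.806%, and for C1233W against T1202K 3.05% and 0.486%. At 1.5-fold, C1233W against P1048R had 1 member higher, SNHG16, and 3 lower, SNHG12, SNHG15 and TAF1D (7.63% and 3.36% of all genes). T1202K against P1048R (1.69% and 1.66% of all genes) and C1233W against T1202K (5.96% and 2.9%) had 0. Smaller differences were nevertheless beyond counting error. SNHG15 had a log2 ratio of −0.69 (−0.83, −0.55) and TAF1D of −0.61 (−0.68, −0.54) for C1233W against P1048R, whereas SNHG16 was at 0.60 (0.44, 0.75), SNHG3 at 0.44 (0.23, 0.66) and SNHG5 at 0.29 (0.16, 0.41). For C1233W against T1202K, SNHG15 was at −0.58 (−0.72, −0.44) and SNHG12 at −0.56 (−0.80, −0.33). TAF1D was the member that most clearly separated T1202K from P1048R, at −0.50 (−0.57, −0.43).

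Over the 25 host genes the median log2 ratio was 0.27 in P1048R, 0.19 in T1202K and 0.27 in C1233W against WT, beside −0.04, −0.01 and −0.01 over all genes in the same comparisons. For the 1736 other long non-coding RNA genes it was −0.11 in P1048R, −0.21 in T1202K and 0.03 in C1233W. Of these genes, 7.2% were past the 2-fold rule as higher and 5.99% as lower in P1048R, 3.28% and 6.74% in T1202K, and 6.62% and 4.15% in C1233W against WT. Scaling by total counts moved the all-gene medians to 0.18 in P1048R, 0.17 in T1202K and 0.12 in C1233W, and with them every ratio, and turned the other long non-coding genes in P1048R to 0.11.

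Genes that share a function or a form with the hosts were set beside them. Protein-coding snoRNA hosts (43 genes) had medians of −0.41 in P1048R, −0.25 in T1202K and −0.17 in C1233W against WT. In P1048R 1 was past the rule as lower, RPL23A, a ribosomal protein gene, at 439 CPM against 894 in WT. In C1233W 1 was lower, HSPA8, a constitutive heat shock protein gene that hosts C/D snoRNAs, at 498 CPM against 1342 in WT. The protein-coding hosts leaned below WT, except in C1233W with scaling that leaves out PBRM1 reads (median 0.022). Of the 43, 23 were ribosomal protein genes, which are also counted in the next list. The other 20 had medians of −0.23 in P1048R, −0.26 in T1202K and −0.25 in C1233W. On total counts these were −0.005, −0.08 and −0.12, so the lean of the 20 in P1048R depended on the scaling. Relative to the all-gene median the 43 stood at −0.37 in P1048R, −0.24 in T1202K and −0.16 in C1233W. The 20 stood at −0.19, −0.25 and −0.24 in the same comparisons. A change of scaling shifts all ratios of a comparison alike, so it cannot alter these differences. The 25 members stood at 0.31 in P1048R, 0.20 in T1202K and 0.28 in C1233W relative to the all-gene median.

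Ribosomal protein genes (79) had medians of −0.42 in P1048R, −0.21 in T1202K and −0.15 in C1233W, and those not on the host list had medians of −0.43, −0.20 and −0.17 in the same comparisons. RPS27 was lower past the rule in P1048R (443 CPM) and T1202K (455 CPM) against WT (947 CPM). RPL36A was lower past the rule in C1233W, at 16.4 CPM against 34.1 in WT. Other TOP mRNAs (15 of 16 measured) had medians of −0.40 in P1048R, −0.25 in T1202K and −0.13 in C1233W, with 0 past the rule. EEF1A1, a translation elongation factor and the most abundant of them, had 2987 CPM in P1048R, 3818 in T1202K and 4620 in C1233W, against 5631 in WT. EEF2, another elongation factor, had 1972 CPM in P1048R, 2342 in T1202K and 2592 in C1233W, against 2087 in WT. In C1233W the median of other TOP mRNAs was 0.007 on total counts, and without PBRM1 reads those of TOP mRNAs and ribosomal proteins were 0.066 and 0.045. On total counts the ribosomal protein median was −0.20 in P1048R and −0.04 in T1202K, and that of other TOP mRNAs was −0.18 in P1048R and −0.08 in T1202K. The position of these lists against WT, and in C1233W its direction, therefore depended on the scaling. The all-gene median moved along with them. Relative to it, ribosomal proteins stood at −0.38 in P1048R, −0.20 in T1202K and −0.14 in C1233W, which a change of scaling cannot alter. Other TOP mRNAs stood at −0.36, −0.24 and −0.12 in the same comparisons.

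The proteins that bind and assemble snoRNAs (20 genes) had medians of −0.27 in P1048R, −0.18 in T1202K and −0.30 in C1233W, with 0 past the rule. On total counts they were −0.05, −0.005 and −0.17 in the same comparisons, so the lean below WT in P1048R and T1202K depended on the scaling. Relative to the all-gene median they stood at −0.23 in P1048R, −0.17 in T1202K and −0.30 in C1233W, which a change of scaling cannot alter. NOLC1, a nucleolar phosphoprotein that binds snoRNPs, had 569 CPM in P1048R, 623 in T1202K and 588 in C1233W, against 749 in WT. TCOF1, the nucleolar protein treacle, had 369 CPM in P1048R, 431 in T1202K and 387 in C1233W, against 451 in WT. These CPM values are on the TMM scale.

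NMD factors (18 genes) had medians of 0.17 in P1048R, 0.01 in T1202K and −0.09 in C1233W, with 0 past the rule, and the C1233W median was 0.04 on total counts. SMG1, the kinase of the pathway, had 377 CPM in P1048R, 317 in T1202K and 361 in C1233W, against 337 in WT. RNPS1, an exon junction protein, had 233 CPM in P1048R, 260 in T1202K and 277 in C1233W, against 292 in WT. Transcripts known as NMD targets (11 genes, of which SMG5 and UPF2 are also on the factor list) had medians of 0.32 in P1048R, 0.25 in T1202K and 0.22 in C1233W. ATF3, a stress-induced transcription factor gene, was past the rule as higher in P1048R (232 CPM) and C1233W (199 CPM) and stood at 162 CPM in T1202K, against 84.4 in WT. The remaining targets passed the rule in no mutant.

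**Figure D3:**
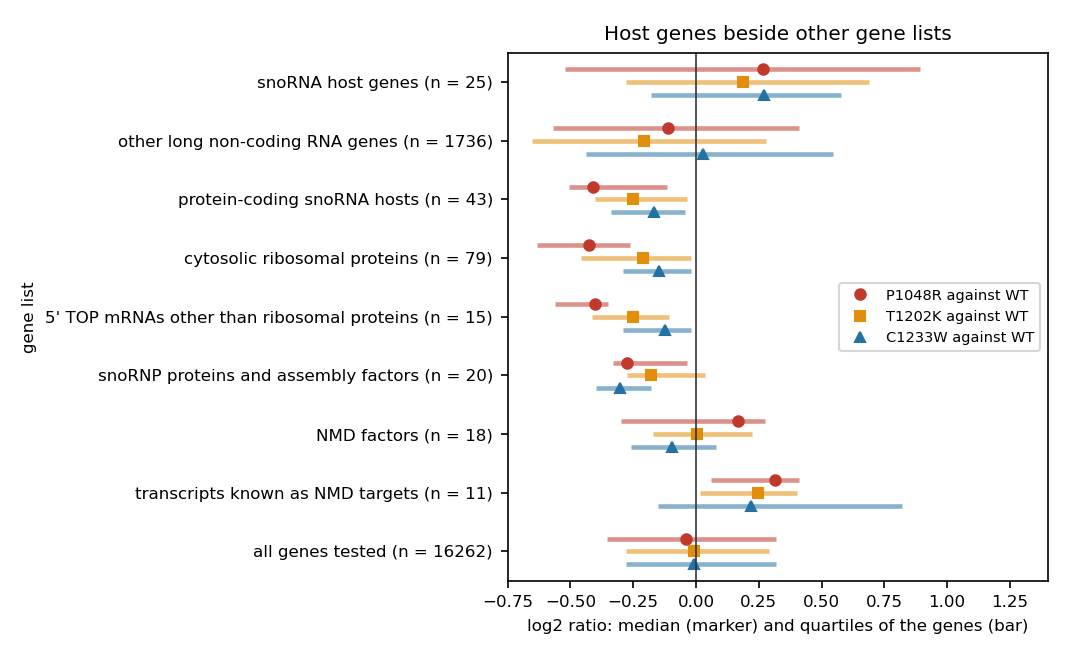
Median log2 ratio (marker) and span between the quartiles of the genes (bar) of the host genes and of other lists, for P1048R, T1202K and C1233W against WT. The host genes sit at 0.27, 0.19 and 0.27, whereas ribosomal protein genes sit at −0.42, −0.21 and −0.15.

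The table held 992 rows of snoRNAs and scaRNAs, with 442 reads in P1048R, 395 in T1202K, 356 in C1233W and 457 in WT. Of the 143 inside members, 84 of them in SNHG14, 123 had 0 reads in every library. Reads on these rows were 68 in P1048R, 66 in T1202K, 51 in C1233W and 83 in WT, against 17196, 14556, 12543 and 9542 reads on the members in the same libraries. The processed small RNAs were thus hardly captured, and the values above describe the host transcripts. SNORD104 in SNHG25 reached 1.42 CPM in P1048R, 1.15 in T1202K and 0.580 in C1233W, against 2.57 in WT. SNORA26 in DANCR reached 0.168 CPM in P1048R, 0.353 in T1202K and 0.387 in C1233W, against 1.07 in WT, where it had 10 reads. It is named because it reached 1 CPM, which it did in WT alone, so nothing is read from its lower level in the mutants. The other rows inside members stayed under 1 CPM in every library.

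Neighbouring genes were set beside their hosts, and no link between the differences of a pair was tested. SLC3A2, the heavy chain of amino acid transporters, starts 188 bases from SNHG1 on the other strand. It had 221 CPM in P1048R, 239 in T1202K and 219 in C1233W, against 102 in WT, and passed the 2-fold rule in all 3 mutants. Its log2 ratios to WT were 1.11 in P1048R (1.01, 1.22), 1.23 in T1202K (1.12, 1.34) and 1.10 in C1233W (0.99, 1.21), beside at most 0.21 for SNHG1. Here the divergent pair differed from each other more than SNHG1 differed between libraries.

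CEP295, a centriole gene that overlaps TAF1D on the other strand, had 167 CPM in P1048R, 117 in T1202K and 117 in C1233W, against 82.9 in WT. Its log2 ratio of 1.01 in P1048R (0.89, 1.13) was past the rule, beside 0.89 for TAF1D. C11orf54, which overlaps TAF1D on the other strand, was at 0.98 in P1048R (0.70, 1.26), 0.70 in T1202K (0.42, 0.997) and 0.96 in C1233W (0.68, 1.25), above WT in every mutant and not past the rule. Its start, at base 93741591 of chromosome 11, lies beside the RefSeq start of TAF1D at base 93741495. MED17, a Mediator subunit gene that starts 164 bases from the GENCODE start of TAF1D, was near 0 in every mutant, at 0.02 in P1048R, −0.12 in T1202K and −0.05 in C1233W. TRNAU1AP, whose end overlaps that of SNHG12, was at 0.65 in P1048R, 0.32 in T1202K and 0.08 in C1233W, the same order as SNHG12 at smaller size. RCC1 starts 37 bases from SNHG3 and holds it within its span on the same strand, so shared reads make both counts uncertain. RCC1 was at −0.37 in P1048R, −0.24 in T1202K and −0.14 in C1233W, also in the order of SNHG3.

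Other neighbours were apart from their host. ZNFX1, which starts beside ZFAS1 on the other strand, was at −0.49 in P1048R, −0.17 in T1202K and −0.29 in C1233W, while ZFAS1 was above WT. SIL1, which overlaps SNHG4, was at −0.05 in P1048R, 0.09 in T1202K and 0.28 in C1233W. GAS5-AS1, which overlaps GAS5 on the other strand, rests on few reads. It had 0.419 CPM in P1048R, 0.442 in T1202K and 0.677 in C1233W, against 1.60 in WT, and reached the 1 CPM minimum in WT alone, so nothing is read from its lower level in the mutants.

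**Figure D4:**
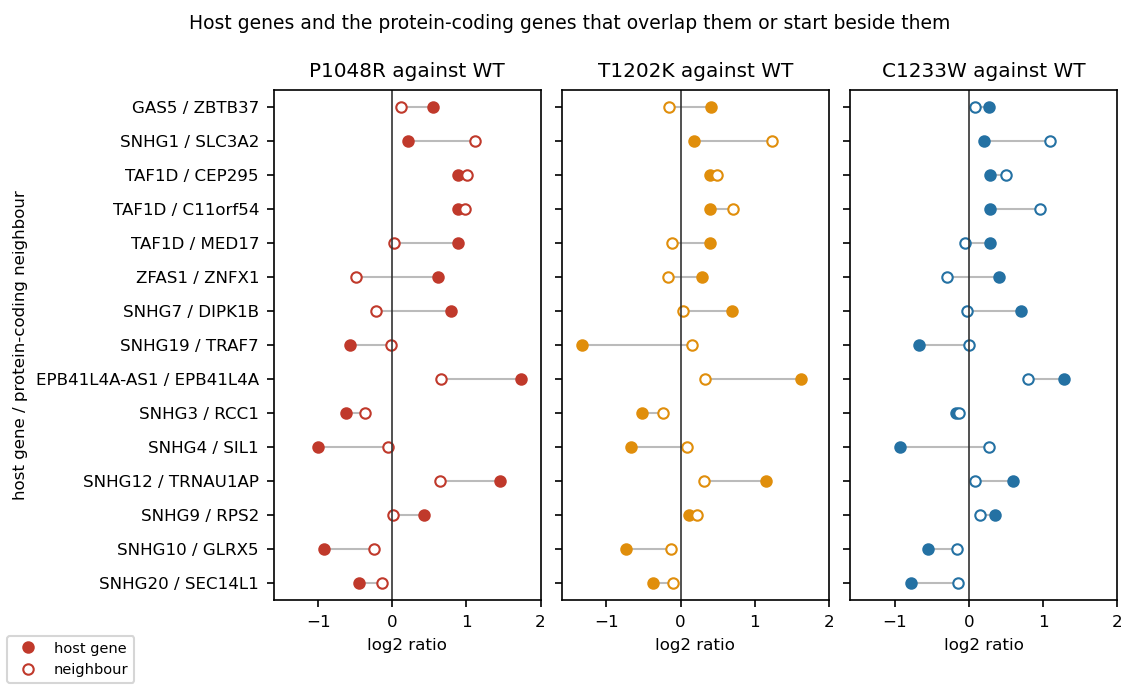
Log2 ratio to WT of each host gene (filled) and of a protein-coding gene that overlaps it or starts within 5 kb on the other strand (open), joined by a line, in P1048R, T1202K and C1233W. Neighbours with at least 5 CPM in a library are shown. SLC3A2 lies at 1.10 to 1.23 with SNHG1 near 0.20, and MED17 lies near 0 with TAF1D above it.

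Host transcripts were shorter than most, with a median longest transcript of 1698 bases against 3385 over all genes tested, and a median GC content of 49.3% against 48.0%.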

How the data were processed

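Total RNA of 4 libraries, 1 per construct, was sequenced with a stranded kit, per the labels' protocols. The deposited values were raw read counts per gene. Per the submitters' processing notes, Trim Galore, HISAT2, featureCounts and build hg38 were used; no source used here gives their versions, the annotation or the strand setting. All 58735 identifiers matched GENCODE 29. No column of other samples was present.

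From these counts, TMM factors (trimmed mean of M values; edgeR 4.0.16, R 4.3.3) were 1.07 for P1048R, 1.03 for T1202K, 0.999 for C1233W and 0.912 for WT. Genes that reached 1 CPM in any library were compared by log2 ratios after adding 0.5 to each count. Intervals were exact Poisson for levels, and Clopper-Pearson on the share of reads for ratios. PCR copies are not independent molecules. No p-value was made. The size rule was run on simulated Poisson counts, which checks the calculation and not the variation between libraries.

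Named in full were the 8 members with the highest mean CPM per kb and every member past the 2-fold rule; of other lists, up to 4 genes past the rule, otherwise the 2 with the highest mean CPM; of neighbours and snoRNAs, those reaching 1 CPM, some only in the plot or not printed. Further members were named to account for all 26. The members and lists were chosen with earlier results of these data known. Alternatives covered scaling, filters, prior count, depth, GC and length, and fold.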

Additional observations from a re-analysis of the deposited data

How the results depend on the processing

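No paired analysis was possible because each construct had 1 library, and leaving out a replicate was not possible for the same reason. Of 12 member and mutant pairs past 2-fold against WT, 0 changed sign and 11 remained past it under every alternative that gave them a value; the exception was SNHG11 in T1202K. There were 8 such alternatives for single genes, but 7 for SNHG19, which was below the 5 CPM minimum. The alternative scalings raised every ratio to WT, and the changed level minima left ratios as they were. A call as higher than WT could thus be lost only through the prior count, the thinned counts or the GC and length trend. Over the 25 members, scaling by total counts gave 8 past 2-fold in P1048R (5 under TMM, median 0.49 against 0.27). It gave 2 in C1233W (1 under TMM), and scaling without PBRM1 reads also gave 2 there. The 2 were EPB41L4A-AS1 and SNHG17. In C1233W, 681 of 16262 genes were higher under TMM, 943 on total counts and 1121 without PBRM1 reads. Higher minimum levels raised the P1048R median to 0.50 at 5 CPM and 0.55 at 10 CPM. At 1.5-fold, 12 members passed in P1048R, 10 in T1202K and 8 in C1233W against WT, 4 in C1233W against P1048R, 6 as lower in WT than in every mutant and 1, SNHG4, as higher. Pairs short of 2-fold that passed it under an alternative were, with their highest values, C6orf48 in P1048R (1.21) and T1202K (1.12), TAF1D in P1048R (1.12), SNHG17 in C1233W (1.11) and SNHG7 in P1048R (1.01). SNHG7 also moved the other way, with lowest values of 0.54 in P1048R, 0.32 in T1202K and 0.44 in C1233W, each short of 1.5-fold. Over all genes, TMM gave 728 higher and 491 lower in P1048R, 479 and 359 in T1202K, and 681 and 197 in C1233W; total counts gave 1253 and 231 in P1048R, 806 and 221 in T1202K, and 943 and 125 in C1233W. A minimum of 5 CPM lowered the all-gene totals to 603 in P1048R, 359 in T1202K and 330 in C1233W against WT, and to 17, 201 and 124 between mutants (201, 738 and 575 at 1 CPM: T1202K against P1048R, C1233W against P1048R, C1233W against T1202K); fewer genes were tested there. Counting depth limits members under about 5 CPM.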
